A study of Nothobranchius furzeri with 20 samples.

Results

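The livers of the youngest and the oldest fish of an age series were compared gene by gene: 5 male turquoise killifish (Nothobranchius furzeri) of the GRZ strain at 14 weeks of age against 5 males of the same strain at 5 weeks. These 10 libraries were chosen by the age in the labels, out of 20 in all. The other 10 came from 7- and 10-week males, 5 of each. All fish carried the same strain label, and the labels name no mutation, agent or diet. RNA-seq counted reads over the whole liver for 26739 gene identifiers, of which 22484 had at least 1 read in some library. Total counts ran from 22529235 to 34710218 in the 10 libraries compared.

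The turquoise killifish lives in seasonal ponds that dry out, and it grows, matures and ages within months. GRZ is an inbred, short-lived laboratory strain of this species, used to study ageing in a vertebrate. The liver makes most plasma proteins, handles lipids, sugars and bile acids, and breaks down foreign compounds, and in whole liver the RNA of hepatocytes is mixed with that of bile duct, blood, vessel and immune cells. A lower level of a gene in such bulk RNA cannot tell fewer cells of a type from less RNA per cell. The identifiers have no names, functions or positions in the sources used here, so the tissue label could not be checked against marker genes, and genes are given below by identifier and by how they were measured.

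Several fish did not resemble their own age group most. Over the tested genes, the Spearman correlation of each liver with the other livers was taken. It runs across genes, and genes do not count as independent replicates. The median correlation of 5-week fish 3 was 0.911 with the other 5-week fish and 0.944 with the 14-week fish. For 5-week fish 5 it was 0.913 with its own age and 0.934 with 14 weeks, and for 5-week fish 4 the values were 0.901 and 0.902. The 5-week fish 1 and 2 were closer to their own age, at 0.883 against 0.874 and at 0.901 against 0.881. At 14 weeks, fish 1 to 4 had medians of 0.958 to 0.961 with their own age, while 14-week fish 5 had 0.914. The 5-week group therefore held fish unlike each other, and the 14-week group held 4 fish that were alike and 1 apart. Whether the fish that resembled the other age carry the right age label cannot be settled from the files, and every difference below is between groups as labelled. The counts of calls are given below with all fish and with each of these fish left out singly. No fit left out 5-week fish 3, 4 and 5 together.

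**Figure D1:**
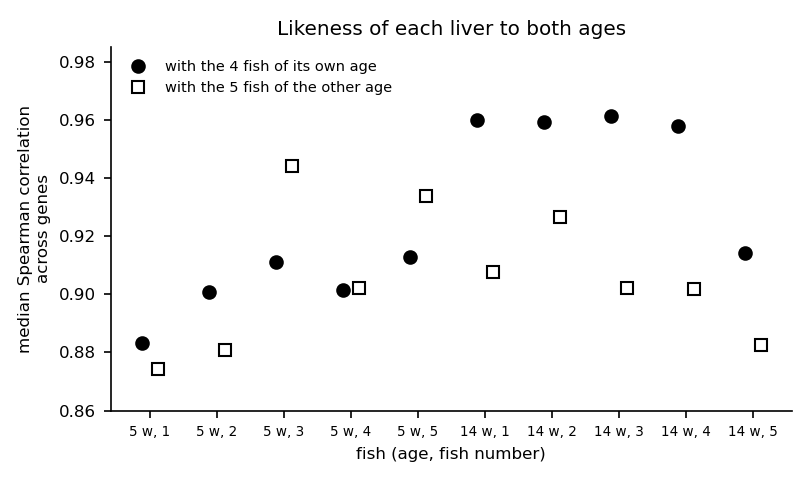
Median Spearman correlation across tested genes (y axis, no unit) of each liver (x axis, age in weeks and fish number) with the 4 other fish of its own age (filled circles) and the 5 fish of the other age (open squares). The open square lies above the filled circle for 5-week fish 3, 4 and 5, and 14-week fish 5 has a lower filled circle (0.914) than the other 14-week fish (0.958 to 0.961).

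In the fit of all 20 libraries, more liver genes were called lower than higher at 14 weeks. Of 16475 genes with enough reads to be tested, 215 were higher and 436 were lower at 14 weeks at an adjusted p under 0.05 (edgeR's quasi-likelihood test with Benjamini-Hochberg adjustment). These are 1.31% and 2.65% of the tested genes, and 3.95% together. This order did not hold in every count given below. The 10 libraries of these ages alone gave 3 higher and 2 lower, and the order of genes without overlap between fish turned with the scaling. Levels are given as CPM, which is the read count of a gene scaled to library size. The median change on the log2 scale was 1.34 among the genes called higher and -1.72 among those called lower. At least 8-fold changes were made by 103 of the genes called lower and by 17 of those called higher. Over all tested genes, called or not, the median log2 change was -0.08 and 43.1% had a change above 0. This centre depends on the scaling, and the median was -0.04 under RLE and -0.06 under the upper quartile. The genes called lower were shorter (median 2355 bp) than those called higher (median 3400 bp), beside a median of 2680 bp over the 15577 tested genes with a length. A fitted change of at least 2-fold was found in 2439 tested genes, and 1952 of these were not called. Uncalled changes of this size are estimates that did not pass, and 869 of the 2439 genes had a mean under 1 CPM. Without a single fish the count of calls ran from 57 to 410 higher and from 80 to 967 lower. The 5- and 14-week fish that moved it by over 1.5 times are named with their counts further on. Among the fish of the other ages, only the count of falls moved so far, to 278 and 279 without 7-week fish 1 and 4 and to 288 without 10-week fish 3.

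**Figure D2:**
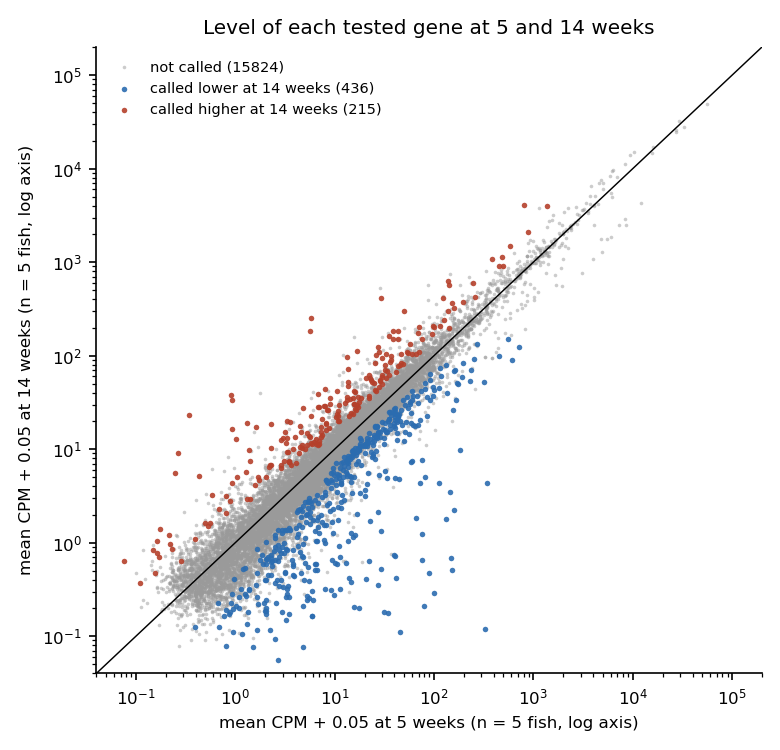
Mean level of each of the 16475 tested genes at 5 weeks (x axis) and at 14 weeks (y axis), in CPM with 0.05 added, both on log axes, n = 5 fish per age. Red points are the 215 genes called higher and blue points the 436 called lower; the line marks equal levels, and the blue points reach farther from it than the red ones.

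As shares of the liver's RNA both sets were small. Reads of the 215 genes called higher summed to 10482 ± 1561 CPM at 5 weeks and 29112 ± 7526 CPM at 14 weeks (SD, n = 5 each). A few abundant genes weigh heavily in this sum. The mean of Nfu_g_1_007038 went from 813 to 4060 CPM, and that of Nfu_g_1_009142 from 1367 to 4030 CPM. Reads of the 436 genes called lower summed to 15125 ± 3409 CPM at 5 weeks and 4536 ± 682 CPM at 14 weeks. The genes were picked for these differences, so the sums describe their size and are not tested. The lowest 5-week fish in the second sum was fish 3, at 10084 CPM, and the highest was fish 5, at 19344 CPM.

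Genes consistent in all fish were those in which every fish of one age lay above every fish of the other. There were 199 such genes higher at 14 weeks (1.21% of tested genes) and 223 lower (1.35%). Which direction held more of them turned with the scaling, with 235 higher and 190 lower under RLE, 228 and 193 under the upper quartile, and 240 and 172 under library totals alone. The calls and this count picked partly different genes. Of the 215 genes called higher, 129 (60.0%) had no overlap, whereas 127 of the 436 called lower did (29.1%). Another 166 genes had no overlap without being called, with a median absolute log2 change of 0.828 against 1.32 in those that were called. The gap between the nearest fish of both ages was mostly narrow. Among called genes without overlap its median was 0.26 on the log2 scale for rises and 0.18 for falls, and a gap of at least 1 was found in 5 rises and 7 falls. Leaving out 14-week fish 5 gave 570 higher and 543 lower genes without overlap, and leaving out 5-week fish 3 gave 468 and 644. Fewer fish per age also make overlap less likely, and with any 1 of the 10 fish left out the counts ran from 213 to 570 and from 261 to 644. Counts over 1.5 times those with all fish also came without 5-week fish 1 (300 higher and 357 lower), without 5-week fish 5 (383 and 366), without 14-week fish 2 (335 and 470) and, for falls, without 5-week fish 4 (388).

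Calls that did not hang on a single fish were fewer. Leaving out each of the 20 libraries in turn, 53 genes were called higher every time and 72 were called lower every time. Of these, 50 and 48 had no overlap between the ages. The set that was both called with all fish and in 4 other kinds of fit to the 20 libraries held 35 higher and 54 lower genes.

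The widest gaps among called genes without overlap, and reaching a mean of 5 CPM at the higher age, were those of Nfu_g_1_000442 and Nfu_g_1_003038 among the rises. Nfu_g_1_000442 (6525 bp) stood at 10.01, 8.24, 1.91, 4.91 and 3.21 CPM in 5-week fish 1 to 5. In 14-week fish 1 to 5 it stood at 180.0, 130.7, 123.1, 324.0 and 161.0 CPM. The lowest 14-week fish lay 12.2-fold above the highest 5-week fish, measured with a prior count of 2. The fitted log2 change was 5.02 (SE 0.81, adjusted p = 0.00362), and the gene was called in all 32 alternatives, with adjusted p from 1.41e-11 to 0.0262. At 10 weeks it stood at 249 ± 205 CPM and at 7 weeks at 7.19 ± 6.54 CPM (SD, n = 5). The level was thus low in the fish of 5 and 7 weeks and spread widely in those of 10 weeks. At 10 weeks it ran from 18.7 CPM in fish 5 to 467 CPM in fish 3. The lowest of these stood next to 7-week fish 3 (18.6 CPM).

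Nfu_g_1_003038 (672 bp) lay between 0.037 and 1.52 CPM at 5 weeks, lowest in fish 3, and between 8.69 and 83.9 CPM at 14 weeks, lowest in fish 2. Its log2 change was 5.45 (SE 0.93, adjusted p = 0.00531), and adjusted p reached 0.0769 when limma-voom gave each age its own weight. The range over the alternatives was 2.57e-07 to 0.0769. The gap between the nearest fish was 5.52-fold. At 10 weeks the gene stood at 76.8 ± 56.1 CPM, above its 14-week mean of 37.8 ± 28.9 CPM (SD, n = 5).

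Among the falls the widest gaps were those of Nfu_g_1_021642 and Nfu_g_1_018214. Nfu_g_1_021642 (1152 bp) stood between 20.0 and 102 CPM at 5 weeks and between 0.043 and 2.51 CPM at 14 weeks. The value of 102 CPM came from 5-week fish 3, the fish that otherwise most resembled the 14-week fish. The log2 change was -5.88 (SE 1.35, adjusted p = 0.0228). It lost its call without 14-week fish 1 (0.0528), fish 3 (0.0645) or fish 4 (0.0713), in a range of adjusted p from 0.000148 to 0.102 over 32 alternatives.

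Nfu_g_1_018214 (5700 bp) was the more even of these falls. It stood at 102.0, 69.95, 106.2, 72.2 and 78.6 CPM in 5-week fish 1 to 5, and at 14.9, 32.8, 16.6, 15.7 and 33.5 CPM in 14-week fish 1 to 5. The ages lay 2.09-fold apart at their nearest fish. Its log2 change was -1.92 (SE 0.37, adjusted p = 0.00997). The call was lost in the 10 libraries alone (0.05003), against a 1.5-fold minimum (0.0543) and with a weight per age (0.0514), and the lowest adjusted p over the alternatives was 5.65e-05. At 7 weeks the gene stood at 153 ± 65.8 CPM, above its mean at 5 weeks, and at 10 weeks at 23.6 ± 12.4 CPM (SD, n = 5).

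**Figure D3:**
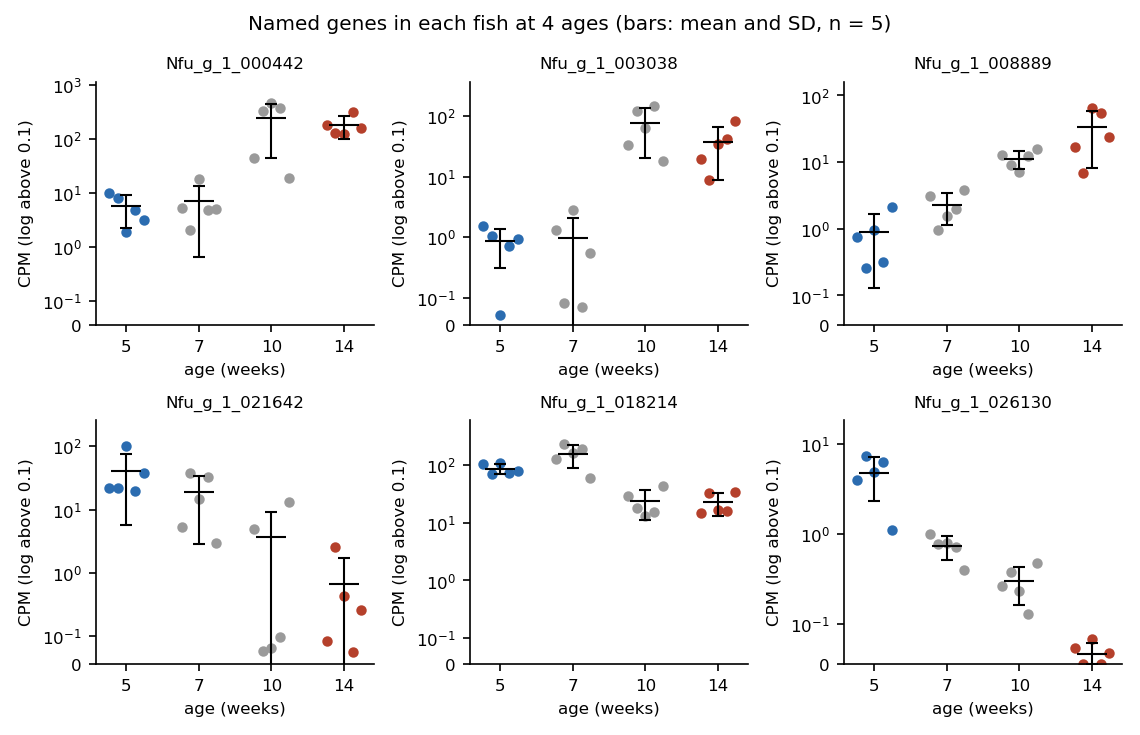
Level in CPM (y axes, log above 0.1 CPM and linear below) of 6 genes in each fish at 5, 7, 10 and 14 weeks (x axes), with 5-week fish in blue and 14-week fish in red, and bars for mean and SD of n = 5. In all 6 panels the blue and red points do not overlap, and the 14-week values of the lost gene Nfu_g_1_026130 lie at or below 0.1 CPM.

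The spread of the shared fit comes from all 4 ages, and the choice of libraries mattered for how many genes were called. Fitted to the 10 libraries of 5 and 14 weeks alone, 5 of 15692 genes were called (0.0319%), 3 higher and 2 lower. They were Nfu_g_1_000442, Nfu_g_1_003038 and Nfu_g_1_008889 among the rises and Nfu_g_1_026130 and Nfu_g_1_022937 among the falls, all of them genes called in the fit of 20 libraries. A limma-voom fit that gave each age its own weight called 89 (0.54%), 35 higher and 54 lower. In that fit the 5-week age had a weight of 0.631 and the 14-week age 0.902, against 1.47 at 7 weeks and 1.1985 at 10 weeks.

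Nfu_g_1_008889 (3623 bp), chosen here after its values were seen, rose from 0.885 ± 0.755 to 33.4 ± 25.1 CPM (SD, n = 5). Every 14-week fish, from 6.86 CPM upward, lay above every 5-week fish, of which the highest had 2.13 CPM. The fitted log2 change was 5.24 (SE 0.65, adjusted p = 0.000421), with adjusted p between 1.80e-17 and 0.0775 over 32 alternatives, of which 31 called it.

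Genes lost from the liver were few, and none was gained under the same rule. A lost gene had at least 10 reads in each 5-week fish and at most 3 reads in each 14-week fish, and a gained gene had the reverse. The count was 2 lost and 0 gained. Without 5-week fish 3 it was 5 lost, and without 14-week fish 5 it was 1 gained.

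The lost genes were Nfu_g_1_026130 (956 bp) and Nfu_g_1_022937 (432 bp), named because the count was small. Nfu_g_1_026130 had 669 reads over the 5-week fish, at least 29 in each, and 4 reads over the 14-week fish, at most 2 in any. In pooled CPM it was 179-fold lower at 14 weeks, with a 95% interval of 69.5 to 658 for counting error only. Nfu_g_1_022937 had 369 reads over the 5-week fish, at least 12 in each, and a single read in 14-week fish 5. Its pooled CPM was 395-fold lower, with a 95% interval of 70.4 to 15628 for counting error only. Their fitted log2 changes were -7.25 (SE 0.65, adjusted p = 8.62e-06) and -7.93 (SE 0.85, adjusted p = 8.92e-05), and both were called in all 32 alternatives. The mean of each was lower at each later age. Nfu_g_1_026130 went from 4.76 ± 2.41 CPM at 5 weeks to 0.742 ± 0.220 at 7 weeks (SD, n = 5). It stood at 0.2999 ± 0.138 at 10 weeks and 0.026 ± 0.027 at 14 weeks. Nfu_g_1_022937 stood at 2.67 ± 1.82, 1.54 ± 0.62, 0.166 ± 0.132 and 0.0058 ± 0.013 CPM at the same ages. Both were still read at 10 weeks, with 4 to 14 and 1 to 8 reads per fish.

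When the rule was relaxed after the data were seen, so that 4 of the 5 fish of each age had to meet it, 16 genes were lost and 3 gained. Among the lost genes, 14 passed the filter and 11 were called lower. Of these 16 genes, 5-week fish 3 had under 10 reads in 7, fish 5 in 4, fish 4 in 2, fish 1 in 1 and fish 2 in 0. Nfu_g_1_007425 was one of them and showed the largest fall of all called genes. It had 39, 23, 0, 18761 and 19690 reads in 5-week fish 1 to 5 and 1, 0, 0, 7 and 0 reads in 14-week fish 1 to 5. Its log2 change of -12.37 (adjusted p = 0.0202) was thus carried by 5-week fish 4 and 5, while fish 3 had no read.

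The gained genes were Nfu_g_1_011175, Nfu_g_1_011961 and Nfu_g_1_017250, all called higher. Nfu_g_1_017250 had 2, 3, 1, 3 and 4 reads in 5-week fish 1 to 5 and 25, 13, 37, 25 and 9 reads in 14-week fish 1 to 5, with no overlap (log2 change 2.96, adjusted p = 0.00536). Nfu_g_1_011175 had at most 2 reads in any 5-week fish and 5 to 28 at 14 weeks, lowest in fish 5, also with no overlap (log2 change 4.17, adjusted p = 0.0174). Nfu_g_1_011961 had 1 to 7 reads at 5 weeks and 8 to 19 at 14 weeks (log2 change 1.97, adjusted p = 0.0447). In CPM its ages overlapped, with 0.271 in 5-week fish 5 and 0.247 in 14-week fish 3. Even the genes gained with age therefore stood at about 1 CPM or less at 14 weeks.

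Detection at one age alone mostly rested on few reads. Some 637 genes had a read at 5 weeks and none at 14 weeks, 367 of them in a single fish, with a median of 2 reads over the group. The reverse held for 365 genes, 246 of them in a single fish, with a median of 1 read. Of the 367, 5-week fish 1 held 107 and fish 2 held 98, while fish 3 held 40. Thinned to the depth of the smallest library, a 5-week liver had 19758 ± 700 genes with a read and a 14-week liver 19382 ± 297 (SD, n = 5), a difference that did not pass an exact two-sided permutation test (p = 0.294; adjusted 0.373 over 3 measures).

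Falls outnumbered rises in the classes below 100 CPM, as they did over all tested genes (2.65% against 1.31%). Genes were placed in classes by their mean CPM over all 20 fish, so that neither age alone decided the class. The fish compared are part of that mean, and a single high fish can raise it, so the class is not independent of the change. Under 1 CPM, 15 of 2587 genes were called higher and 54 lower. From 1 to 10 CPM the counts were 60 and 184 of 6784, and from 10 to 100 CPM they were 108 and 174 of 6159. From 100 to 1000 CPM the counts came to 28 higher and 24 lower of 781. This order turned with the fish and the fit used. Without 5-week fish 1 and 2 it was 10 higher and 21 lower, and without 14-week fish 5 it was 27 and 28. With all fish, limma-voom with a weight per age gave 3 higher and 5 lower, while the other fits counted by class kept the order. Without 5-week fish 3 it was kept, at 51 higher and 26 lower. At 1000 CPM and over, edgeR called 4 of 164 genes higher and 0 lower, with 15 and 10 at an unadjusted p under 0.05, and DESeq2 called 7 higher and 2 lower. Without 5-week fish 1 and 2 this order turned as well, to 1 higher and 2 lower, while without 5-week fish 3 it was 5 higher and 0 lower. Below 10 CPM falls outnumbered rises under both other scalings and in the other fits counted by class. From 10 to 100 CPM they did so too, except in DESeq2, with 290 higher and 288 lower. Falls made up 2.09% of the class under 1 CPM and 2.71% from 1 to 10 CPM. They made up 2.83% from 10 to 100 CPM and 3.07% from 100 to 1000 CPM. Rises made up 0.58%, 0.88%, 1.75% and 3.59% of these classes. Up to 1000 CPM, the share of falls was thus not larger in the lower classes, while the share of rises was smaller there.

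CPM counts more reads for longer genes, so the classes were also formed per length. With CPM divided by gene length in kilobases, the same bounds gave 27 higher and 117 lower under 1, 100 and 179 from 1 to 10, and 68 and 123 from 10 to 100. From 100 to 1000 there were 13 and 12, and at 1000 and over 3 and 0. Per length, the share called lower was 3.13%, 2.14%, 4.22% and 2.65% in the classes up to 1000, with no even trend. The share of genes called, higher and lower together, ran from 2.44% at 1000 CPM and over to 6.66% between 100 and 1000 CPM. The share with a fitted change of at least 2-fold ran the other way at the low end, with 33.6% under 1 CPM against 7.00% from 10 to 100 CPM.

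**Figure D4:**
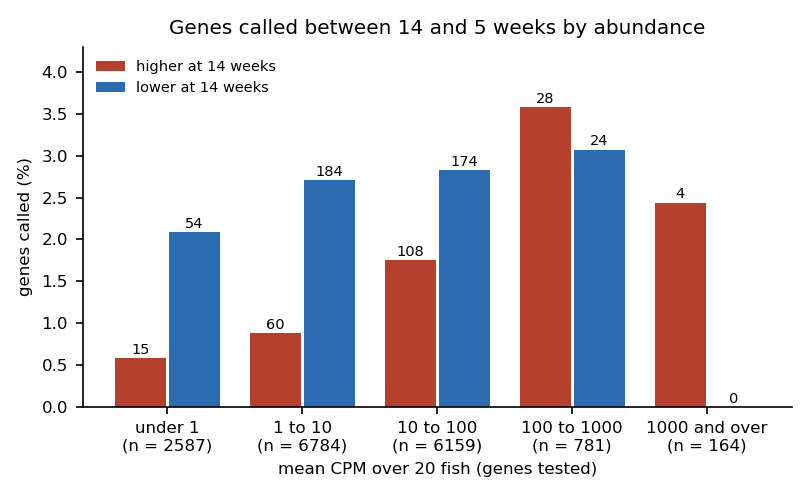
Share of tested genes called higher (red) and lower (blue) at 14 weeks, in percent (y axis), by class of mean CPM over 20 fish (x axis, with genes tested per class). Numbers on the bars are genes; blue bars are taller than red ones in the classes up to 100 CPM, and at 1000 CPM and over the counts are 4 and 0.

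The 100 most abundant transcripts of the liver were called about as often as all tested genes, of which 3.95% were called. They varied more among the 5-week fish than among the 14-week fish. Of the 20 genes with the highest mean CPM, edgeR called 0, with 3 at an unadjusted p under 0.05, and DESeq2 and limma-voom also called 0. Of the top 100, edgeR called 3 higher and 0 lower, with 11 and 6 at an unadjusted p under 0.05, while DESeq2 called 6 higher and 0 lower. Among these 100 genes, 16 had a fitted change of at least 2-fold and 13 of the 16 were not called, against 1952 of 2439 over all tested genes. The median SD of these 100 genes over fish, on the log2 scale, was 0.63 at 5 weeks and 0.33 at 14 weeks. Over all tested genes the same medians were 0.54 and 0.44. Among the 20, Nfu_g_1_021459 alone had a change of at least 2-fold, from 12018 ± 11614 to 4305 ± 4393 CPM (SD, n = 5), with a log2 change of -1.48 that did not pass (adjusted p = 0.279). The 20 most abundant genes of each library took 33.1% ± 1.93 of its counts at 5 weeks and 31.0% ± 2.36 at 14 weeks (SD, n = 5), which did not differ in an exact two-sided permutation test at the 0.05 level (p = 0.175; adjusted 0.373). Without 14-week fish 2, which had the largest share at its age (34.3%), the difference was -2.87 percentage points (exact permutation p = 0.0397, unadjusted).

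The called genes of 1000 CPM and over, named for their small number, were Nfu_g_1_007038, Nfu_g_1_009142, Nfu_g_1_020919 and Nfu_g_1_014364. In that order, their 10-week means were 5107, 2906, 3301 and 1570 CPM, against 4060, 4030, 2101 and 1495 CPM at 14 weeks. Nfu_g_1_009142 stood at 2051, 1468, 618, 1242 and 1456 CPM in 5-week fish 1 to 5 and at 3341, 2944, 4817, 5060.0 and 3988 CPM in 14-week fish 1 to 5. Its ages did not overlap, and the log2 change was 1.56 (SE 0.31, adjusted p = 0.0104, range over the alternatives 1.90e-05 to 0.0833). Nfu_g_1_020919 rose from 884 ± 410 to 2101 ± 468 CPM (SD, n = 5; log2 change 1.25, adjusted p = 0.0173), with the nearest fish of the ages at 1569 and 1591 CPM. Its call was lost without 14-week fish 4 (0.0617, in a range of 0.000142 to 0.133).

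The other pair overlapped between ages. Nfu_g_1_007038 stood at 193, 224, 1367, 1422 and 857 CPM at 5 weeks and at 3309, 1210, 4024, 5319 and 6439 CPM at 14 weeks (log2 change 2.32, adjusted p = 0.0288). The 5-week fish 3 and 4 lay above 14-week fish 2. The call was lost when 14-week fish 3 (0.0598) or 4 (0.0763) was left out, and without 5-week fish 2 (0.0580), in a range of 0.000546 to 0.142. Nfu_g_1_014364 rose from 576 ± 182 to 1495 ± 693 CPM (SD, n = 5; log2 change 1.38, adjusted p = 0.0367). It was called in 20 of 32 alternatives, and without a single fish its call was lost for 14-week fish 3 (0.0985) and fish 4 (0.109) and for 5-week fish 1 (0.0619), fish 2 (0.0762) and fish 4 (0.0676), in a range of 0.00215 to 0.206.

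The spread among the 5-week fish was wider in the genes called lower than in those called higher. The median SD over 5-week fish, on the log2 scale, was 0.83 among genes called lower and 0.51 among those called higher, against 0.54 over all tested genes. At 14 weeks the same medians were 0.44, 0.50 and 0.44. The SD was larger at 5 weeks in 82.8% of the genes called lower, 46.0% of those called higher and 62.8% of all tested genes. The genes were called on the same fish, so these shares are a description.

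In many of the largest falls, a single 5-week fish held over 50% of the summed 5-week CPM. A gene can meet this rule although a second fish stands nearly as high. For Nfu_g_1_007425, fish 4 reached 862 CPM and fish 5 was close to it, at 762. For Nfu_g_1_022627 these fish stood at 113 and 109 CPM. In 85 of the 436 genes called lower (19.5%), over 50% of the summed 5-week CPM came from a single fish, against 8.12% of all tested genes. In the 215 called higher, 13 (6.05%) had over 50% of the 14-week CPM in a single fish, against 4.66% of all tested genes. Among these falls, the fish with over 50% was 5-week fish 4 in 32 genes, fish 5 in 28, fish 1 in 17, fish 2 in 7 and fish 3 in 1. Among these rises, it was 14-week fish 5 in 10 genes, fish 1, 3 and 4 in 1 each and fish 2 in 0. Of the 103 falls of at least 8-fold, 65 were of this kind and 16 had no overlap between the ages. Of the 17 rises of at least 8-fold, 9 were of this kind and 14 had no overlap. Nfu_g_1_017500 was the single called gene that changed sign without a fish. It had 142.1 CPM in 5-week fish 1 and at most 1.19 CPM in the other 5-week fish, and its log2 change went from -4.48 (adjusted p = 0.0453) to 0.34 without that fish (adjusted p = 0.757).

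The 5-week fish 3 lay lowest of its age in 182 of the 436 genes called lower, and it overlapped the 14-week range in 189 of them. Without it, 410 genes were called higher and 967 lower, of which 205 and 415 were among the calls with all fish. Its place was then read against a fit that had not used it. In 26.3% of the 967 falls, and in 45.4% of the 410 rises, its level lay nearer the mean of its own age than that of 14 weeks, while over all tested genes this share was 39.6%. Among the falls this fish was thus nearer the older age more often than over all tested genes, and among the rises less often.

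The other 5-week fish were read in the same way, each against a fit without it. For fish 1 the share nearer its own age was 61.6% of falls and 67.1% of rises, against 60.6% of all tested genes. For fish 2 it was 55.5% of falls and 87.0% of rises, against 67.2%. For fish 4 it was 48.2% of falls and 77.4% of rises, against 51.3%. For fish 5 it was 58.5% of falls and 42.6% of rises, against 46.3%. In these 4 fish the share among falls was above that of fish 3, while among rises fish 5 was below it. The shares are over different sets of genes, with 967 falls without fish 3 against 227 to 499 without each other fish. How far the set of genes moved the shares was not tested. Without fish 1 the calls came to 167 higher and 284 lower, and without fish 2 to 115 and 227. Without both of them, they came to 103 higher and 299 lower. Fish 4 gave 146 and 456 when left out, and fish 5 gave 298 and 499.

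The 14-week fish were uneven in another way. Without 14-week fish 4 the calls fell to 57 higher and 80 lower, and 98.2% and 100% of these genes had that fish nearer its own age, against 71.9% of all tested genes. Without fish 3 they were 79 and 105, with 88.6% and 96.2% nearer, against 65.8%. Without fish 1 they were 138 and 201. Fish 5 was the reverse, since without it 344 genes were called higher and 563 lower, and in 36.9% and 52.2% of these it lay nearer its own age, against 47.6% of all tested genes. In 1462 tested genes (8.87%) fish 5 stood far from the other 14-week fish by Dixon's criterion, against 77 to 134 for each of the others. Without fish 2 the calls were 239 higher and 443 lower, of which 187 and 309 were among the calls with all fish. The fish of both ages had similar depth, and total counts did not differ between the ages in an exact permutation test (p = 0.373, two-sided). Whether tank, feeding, day or handling moved with single fish was not tested, since the labels give none of these.

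**Figure D5:**
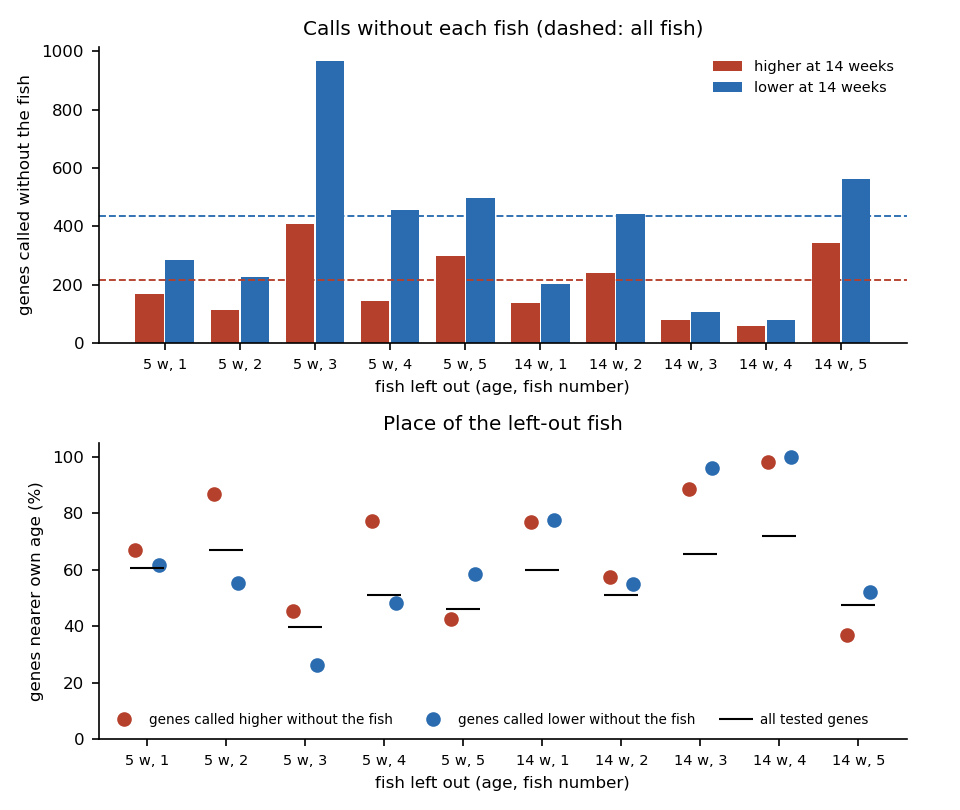
Upper panel: genes called higher (red) and lower (blue) at 14 weeks (y axis) when the fish on the x axis is left out, with dashed lines at 215 and 436 for all fish. Lower panel: share of these genes, in percent, in which the left-out fish lies nearer the mean of its own age, with a bar for all tested genes; 5-week fish 3 has the lowest share among falls (26.3%) and 14-week fish 4 the highest (100%). The sets of genes differ between the fish.

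Most of the called genes stood nearer their 14-week than their 5-week level at 10 weeks, and fewer did at 7 weeks. Of the 215 genes called higher, the 10-week mean lay nearer that of 14 weeks than that of 5 weeks in 190 (88.4%), and the 7-week mean did so in 57 (26.5%). Of the 436 called lower, the numbers were 389 (89.2%) and 184 (42.2%). Over all tested genes the shares were 68.2% at 10 weeks and 41.8% at 7 weeks. The 10-week mean lay past the 14-week mean in 41.4% of the rises and 27.1% of the falls, against 44.5% of all tested genes. The 7-week mean lay on the far side of the 5-week mean in 36.3% of the rises and 42.9% of the falls, against 47.8%. The 7- and 10-week fish took part in the estimate of spread but not in the contrast itself.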

How the data were processed

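Liver RNA was sequenced from 20 male fish, 5 at each of 4 ages, with a TruSeq RNA v2 kit that does not mark strand, per the labels' protocols. The tools named, per the submitters' processing notes, were CASAVA 1.8.2, the aligner STAR 2.4.1d and the read counter featureCounts 1.4.6-p4. The build and annotation used, and how multi-mapped reads were treated, were not given in the sources used here, so reads of overlapping, antisense or near-identical genes cannot be told apart. The authors deposited raw counts per gene, which were tested. The authors also deposited RPKM values, whose divisor ran through a cycle of 25 totals down the columns instead of the total of each library (residual SD 0.000138 on the log2 scale), so they served only to work out gene lengths. None of the identifiers matched the reference table of gene names (0 matches). No lists of genes or markers could be used.

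Counts were fitted with edgeR 4.0.16 in R 4.3.3 (filterByExpr, TMM scaling, glmQLFit on all 20 libraries with 1 mean per age, glmQLFTest of 14 minus 5 weeks). P-values were adjusted by Benjamini-Hochberg over the 16475 genes tested, with calls at 0.05 and no minimum fold. SE is the log2 change divided by the square root of F. Alternatives were DESeq2 1.42.0, limma-voom 3.58.1 with and without weights, other scalings and filters, the 10 libraries alone and leaving out each library. CPM are TMM-scaled, and log2 CPM used a prior count of 2. A total of 3 reads, the limit set by a count of 0, were 0.0861 to 0.138 CPM in the 10 libraries. Limits and intervals cover counting error only. Fish are numbered in accession order only to name them. Same-age pairs differed by 68.1 to 595 in chi-square per degree of freedom, so no library was counted as a repeat. The labels do not say more on the animals, so a p-value reflects only how these samples vary, which may be technical. Single values per fish were compared by exact permutation over all 252 assignments of 10 fish.

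Genes were named by rule as the 2 called rises and 2 called falls with the widest gap between the nearest fish of the ages, without overlap and reaching a mean of 5 CPM at the higher age. Others are named where a count was small or a gene was singled out, after their values were seen. The comparison, its rules and its lists were chosen with earlier results of these data known. The fits were tested on simulated data before use. The share of false calls there was 0.056 in edgeR and limma-voom and 0.170 in DESeq2. There edgeR recovered a share of 0.131 of the 2-fold differences and 0.717 of the 4-fold ones. The share of false calls among fish as uneven as these was not tested.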

Additional observations from a re-analysis of the deposited data

Results flagged for a closer look

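In 7 of 60 groups of 5 fish examined for a fish far from the others by Dixon's criterion, such a fish was found. Chance alone gives about 1 in 20 for independent, normally distributed values. These groups include CPM of genes picked from these data, so 7 of 60 is not read as an excess. For the median correlation with its own age, 14-week fish 5 lay far below the others, at 0.914. For the summed level of the 436 genes called lower, 14-week fish 2 lay far above the others, at 5731 CPM. Nfu_g_1_000442 stood at 18.6 CPM in 7-week fish 3 and at 324 CPM in 14-week fish 4, each above the other fish of its age. Nfu_g_1_021642 stood at 102 CPM in 5-week fish 3 and at 2.51 CPM in 14-week fish 2, again above the others. Nfu_g_1_022937 stood at 0.029 CPM in 14-week fish 5, which is 1 read where the other 14-week fish had 0.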

How the results depend on the processing

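None of the 11 genes listed with all alternatives changed direction, while the counts of calls depended on the method and the fish. With 215 higher and 436 lower (651 in all) as reported, the counts of higher, lower and all calls were 615, 858 and 1473 in DESeq2, 131, 152 and 283 in limma-voom, 35, 54 and 89 with a weight per age, 5, 5 and 10 with that weight in the 10 libraries (added after the data were seen), 3, 2 and 5 in edgeR on the 10 libraries, 21, 34 and 55 against a 1.5-fold minimum, and 103 higher and 402 in all without 5-week fish 1 and 2. Leaving out 1 library gave 137 to 1377 calls, 57 to 410 higher and 80 to 967 lower. Genes without overlap were 470 higher and 652 lower without 5-week fish 1 and 2, and 213 to 570 higher and 261 to 644 lower without 1 fish. Fewer fish also make overlap less likely. Lost genes numbered 0 at 20 reads against 0, 1 at 5 reads against 1, 1 by CPM, 16 when 4 of 5 fish sufficed (3 gained), and 2 to 5 without 1 fish (0 to 1 gained). Classes per length gave 27 higher and 117 lower under 1, 100 higher from 1 to 10, 68 higher from 10 to 100, and 13 and 12 from 100 to 1000. Without 1 fish, total counts differed by 1.0191e+06 to 3.55498e+06, genes at common depth by -650.5 to -215.0 and the share of the top 20 genes by -2.87 to -1.24 percentage points. The causes were not tested. The other scalings moved the median log2 change of all genes by 0.04 or less. Over the 11 genes and 32 alternatives, calls were kept in 312 cases and lost in 40. Genes under 3 reads are at the limit of depth. No paired analysis was possible because fish numbers were given in accession order and link no fish across ages.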
